A study of Mus musculus with 8 samples.

Results

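The genes described here are those of fibroblast growth factor (FGF) signaling and of its negative feedback: the FGF genes, the receptors Fgfr1 to Fgfr4, the Sprouty (Spry) and Spred genes and the dual-specificity phosphatases (Dusp). They were chosen by gene name, as all array probes whose name began with Fgf, Fgfr, Spry, Spred or Dusp and a number, apart from 2 FGF genes not analysed here. This gave 57 genes and 84 probes of 36163 gene names and 55681 probes on the array. Of these, 20 were FGF genes, 4 receptors, 4 Sprouty genes, 3 Spred genes and 24 Dusp genes. The other 2, Fgfr1op and Fgfr1op2, only share the first letters of their names with a receptor and were kept because the name rule took them.

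The RNA came from E14Tg2A, an established mouse embryonic stem (ES) cell line of strain 129/Ola. ES cells were grown in serum with leukemia inhibitory factor (LIF) and taken at 0 days in vitro (DIV). The later groups were cultured without both, in a defined medium: floating epiblast-like aggregates (ELA) at 2 DIV, neural progenitor cells (NPC) replated on laminin at 6 DIV, and neural precursors (NPC/Neu), replated again and deprived of the B27 supplement, at 10 DIV. The labels name no added FGF and no pathway inhibitor in either medium. At each stage 1 array was hybridized with total RNA and 1 with Ago-RNA, which is RNA pulled down from cytoplasmic complexes with an antibody against all Argonaute (Ago) proteins, the proteins that carry microRNAs (miRNAs). The comparison asked which mRNAs change in amount and which change in their association with Ago as the cells leave pluripotency.

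FGFs bind receptor tyrosine kinases at the cell surface and signal through Ras, Raf and MEK to the kinase ERK. ERK signaling switches on its own brakes, among them the Sprouty and Spred proteins, which act upstream at Ras and Raf, and phosphatases of the Dusp family, several of which remove the activating phosphates from ERK in the nucleus or the cytoplasm. In mouse ES cells this pathway drives exit from naive pluripotency, and it later takes part in the patterning and growth of the neural tube.

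Values below are log2 signals after background correction and quantile normalization of the 8 arrays. A gene was read by 1 probe, the one well above background on most arrays, and signals were compared only for the same probe. There was 1 array per condition, so no difference has a replicate and none was tested. RNA of 3 independent experiments was pooled on each array, according to the labels, and variation between cultures or immunoprecipitations is therefore not seen. The only error available is that between spots: over 399 probes printed in 10 spots, the SD was 0.13 to 0.18 for a log2 change in total RNA and 0.13 to 0.15 for the log2 ratio between both kinds of RNA. A gene is counted as higher or lower where its log2 difference was at least 1, a limit that serves description. Between 53.4% and 61.2% of spots per array were well above background. Stage markers were followed in total RNA. From ES to ELA all 6 naive markers listed were lower, with log2 changes of -3.90 to -2.36. From ELA to NPC Pou5f1 (Oct4) changed by -6.78 and the neural gene Sox1 by 3.64. Of the mesendoderm markers, T and Foxa2 were also higher in NPC than in ELA, by 2.55 and 1.75, Sox17 gave 0.64, Eomes -0.72 and Gata4 -0.79, and Gata6 was not detected in total RNA. From NPC to NPC/Neu the neuronal genes Dcx, Tubb3 and Elavl3 were higher by 3.94, 2.01 and 3.11 and Eomes by 2.88, and the naive markers Esrrb and Zfp42 were higher too, by 1.96 and 1.06. Of the glial markers, S100b was not detected on any array, Gfap was detected on all 4 total RNA arrays, with changes of -0.36 to 0.21, and Olig2 was 1.55 higher in NPC/Neu than in NPC. In bulk RNA, fewer cells expressing a gene and less RNA per cell cannot be told apart, and the part of such other cells in the results below was not tested.

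On total RNA arrays 53 of the 57 genes were well above background at one stage or more, and 40 were so on all 8 arrays. The 4 that were not detected in total RNA at any stage were Fgf16, Fgf20, Spry3 and Dusp21. From ES to ELA, 4 of 50 members seen on at least one of both arrays were at least 1 higher (8.0%, against 4.87% of all genes) and 6 were at least 1 lower (12%, against 4.57%). From ELA to NPC, 8 of 49 were higher (16.3%, against 10.7%) and 9 were lower (18.4%, against 9.75%). From NPC to NPC/Neu, 11 of 48 were higher (22.9%, against 6.09%) and 3 were lower (6.25%, against 4.36%). The median change of the members was -0.01, -0.08 and 0.05 at the 3 transitions, against 0.00, 0.00 and -0.03 for all genes, so by its median the group had no common direction. Past the limit, however, more members were higher than lower at the last transition (11 against 3). The members past the limit sat on both sides of it and are described by role below.

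**Figure D1:**
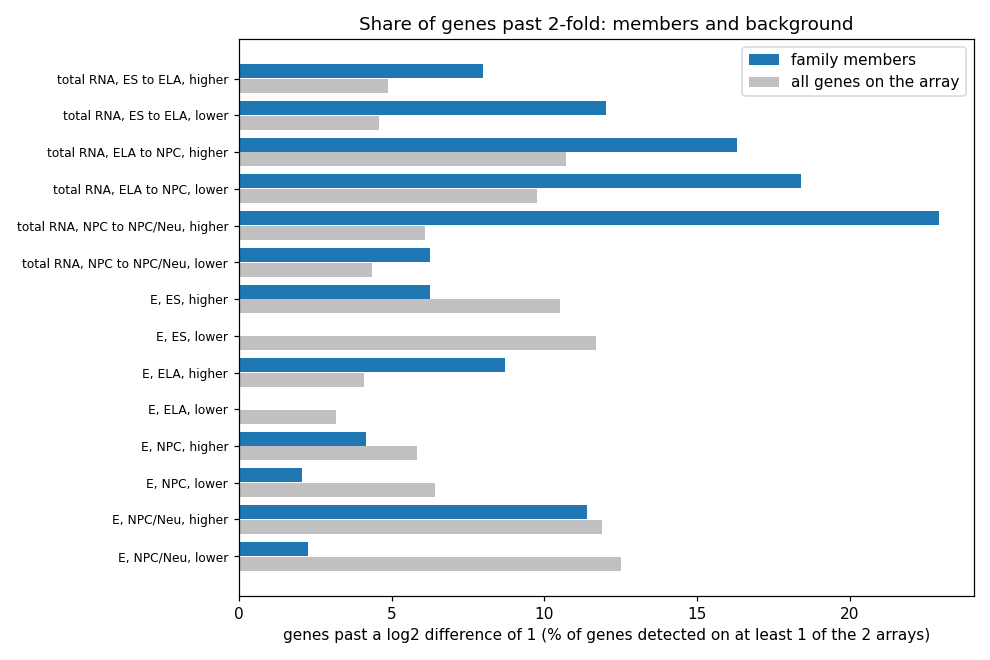
Share of family members (blue) and of all genes on the array (grey) whose log2 difference was at least 1, in percent of genes detected on at least 1 of the 2 arrays compared, for total RNA between stages and for Ago enrichment (E) at each stage. The widest gap is for genes higher in NPC/Neu than in NPC, 22.9% of members against 6.09% of all genes, while members with E of -1 or lower were few or absent at every stage.

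Among the ligands, 10 of 20 FGF genes were well above background on all 8 arrays, but 3 of these, Fgf6, Fgf22 and Fgf23, were read by probes that do not report the gene reliably. The probe of Fgf6 lies downstream of the annotated gene and that of Fgf22 lies opposite an exon of Rnf126, and for both genes a probe inside the gene was dark or was seen in ES cells only. The bright probe of Fgf23, a phosphate-regulating hormone, resembles 15 other places in the genome, and its log2 total RNA signals of 13.87, 13.84, 14.46 and 15.40 from ES to NPC/Neu were not matched by its other probe, which was at background on all 8 arrays. The values of these 3 genes are therefore not read as expression.

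Fgf8, Fgf15, Fgf18 and Fgf9, secreted factors that pattern and expand embryonic tissues, carried the large differences among the ligands. Fgf8, a signal of brain organizer regions, had log2 total RNA signals of 8.19, 8.96, 11.54 and 9.68 from ES to NPC/Neu. It thus peaked in NPC, 5.98-fold above ELA, and was 3.63-fold lower again in NPC/Neu. The mean over its 3 probes gave smaller log2 changes, 1.66 and -1.16. Fgf15, which is expressed in the developing neural tube, measured 10.71, 10.10, 12.23 and 13.27 at the same stages and was highest in NPC/Neu. Fgf18 followed the same order with 9.33, 8.77, 10.64 and 12.22. Both were lowest in ELA and higher at each later stage, by 2.13 and 1.05 on the log2 scale for Fgf15 and by 1.87 and 1.58 for Fgf18. The second probe of Fgf18 gave 2.17 and 1.49. Fgf9 alternated, with 7.18, 9.54, 7.67 and 9.14. Its total RNA was 5.17-fold higher in ELA than in ES cells, then 3.68-fold lower in NPC and 2.77-fold higher in NPC/Neu. In ES cells its signal was near background, and the log2 change from ES to ELA, 2.37 here, ranged from 2.23 to 3.55 under the other scalings.

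Fgf8 and Fgf17 belong to the same FGF subfamily, and their coding sequences are alike enough to matter for the probes. The Fgf8 signal above comes from a probe in its 3′ untranslated region (3′ UTR), at chr19:45811355-45811414 of mm9, which resembles no other site. A further probe lies in the coding sequence where 51 of 60 bases are shared with Fgf17. The first coding probe below is shown because of this likeness, and the second because its signal differed from that of the other Fgf8 probes. The capitals in the first mark the bases that differ from Fgf17. The second is the other coding probe of Fgf8, from nearer the start of the gene, without capitals.
Fgf8 coding probe, chr19:45811668-45811727, minus strand: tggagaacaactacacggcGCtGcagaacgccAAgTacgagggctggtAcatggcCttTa
Fgf8 coding probe, chr19:45816855-45816914, minus strand: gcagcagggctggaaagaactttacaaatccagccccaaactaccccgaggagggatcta

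The first of these Fgf8 probes read 7.05, 7.02, 9.18 and 7.51 in total RNA from ES to NPC/Neu, so it also peaked in NPC, with a change of 2.16 from ELA. The Fgf17 probe was well above background in ES cells only, at 8.24, and Fgf17 total RNA was at least 2.43-fold lower in ELA. The second Fgf8 probe was likewise seen only in ES total RNA, at 8.08, and stayed dark in NPC, where the other probes of Fgf8 were brightest. The probes of Fgf8 thus disagree, and why was not tested.

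**Figure D2:**
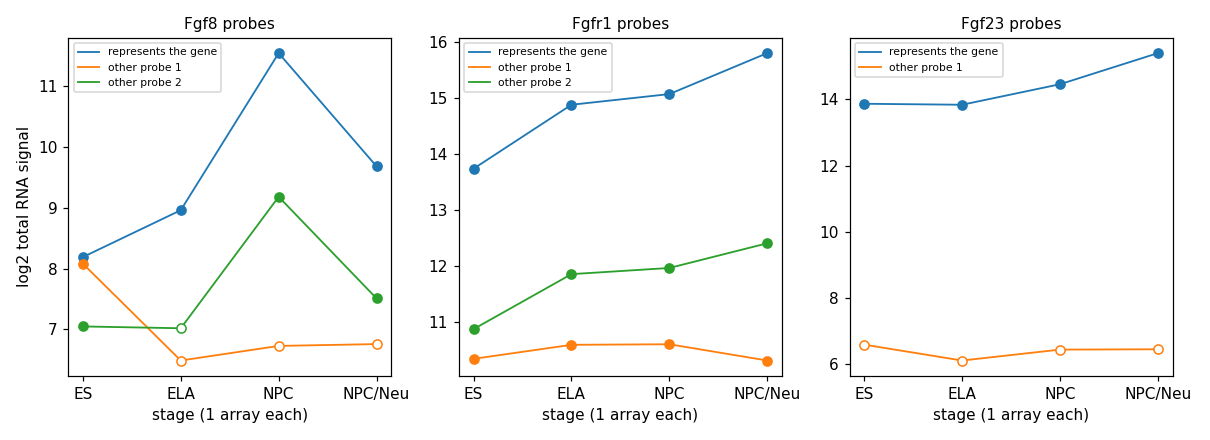
Log2 total RNA signal at each stage (1 array each) for every probe of Fgf8, Fgfr1 and Fgf23; filled points are well above background and open points are not. For Fgf8 the representing probe and one other probe peak in NPC while another is seen in ES cells only, and for Fgf23 the bright probe stands far above a dark one.

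The other FGF genes varied less. The intracellular FGF homologous factors, which are not secreted and bind sodium channels, include Fgf11, Fgf12, Fgf13 and Fgf14. Fgf13 measured 7.74, 8.33, 8.65 and 8.24 in total RNA from ES to NPC/Neu, Fgf11 lay between 7.14 and 7.37, and the representing probe of Fgf14 between 7.40 and 7.75. None of these moved by 1 between neighboring stages, whereas Fgf12 was near the detection limit and was seen in total RNA in NPC (7.11) and NPC/Neu (7.55). A second Fgf14 probe was seen in total RNA of ELA alone, at 7.70.

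The 7 remaining detected ligands were seen at some stages only, most of them near the detection limit. Fgf1, Fgf3 and Fgf17 were seen in total RNA of ES cells alone, at 8.23, 7.46 and 8.24, and Fgf1 was at least 2.25-fold lower in ELA. Fgf2, a factor widely used to maintain primed pluripotent and neural cultures, was dark in ES cells (6.62), seen in ELA (7.38) and NPC (7.01) and dark in NPC/Neu (6.65). Fgf21, an endocrine FGF, was seen in ELA alone (7.29). Fgf7 was seen in ES cells (7.01), NPC (7.31) and NPC/Neu (7.65) and not in ELA. Fgf10, which signals like Fgf7 from mesenchyme to epithelium, was seen in total RNA in NPC alone (7.34). The ligands detected therefore differed by stage, but most of these signals lie too close to background to carry much weight.

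All 4 receptors were detected on all 8 arrays, and each had its own course. Fgfr1, on chromosome 8, measured 13.74, 14.88, 15.07 and 15.80 in total RNA from ES to NPC/Neu. It was higher at each stage, most of all from ES to ELA (2.21-fold, a log2 change of 1.15, or 0.79 as the mean over its 3 probes). Fgfr2 measured 9.24, 9.76, 10.75 and 9.85, with its highest value in NPC and no step past the limit at this probe. Its other probe overlaps the first and gave 1.62 from ELA to NPC and -1.42 from NPC to NPC/Neu. Fgfr3 measured 10.26, 10.00, 13.25 and 12.42. Its total RNA was 9.55-fold higher in NPC than in ELA, and the probe in its coding sequence gave a log2 change of 2.00. The representing probe of Fgfr3 resembles the opposite strand of Nvl, which the coding probe does not. Fgfr4 measured 8.70, 9.17, 8.04 and 7.87 and was 2.18-fold lower in NPC than in ELA. Its coding probe was seen in ES cells only, and the mean of both probes changed by -0.50 from ELA to NPC. Fgfr1, Fgfr2 and Fgfr3 thus ended higher and Fgfr4 lower than in ES cells.

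The coding probe of Fgfr1, shown because it repeats the course of the representing probe at another place of the transcript, gave 10.88, 11.86, 11.97 and 12.41 in total RNA.
Fgfr1 coding probe, chr8:26684061-26684120, plus strand: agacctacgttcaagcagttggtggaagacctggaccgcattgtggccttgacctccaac
Another Fgfr1 probe resembles 283 other places in the genome. It measured between 10.32 and 10.61 and did not share the rise.

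**Figure D3:**
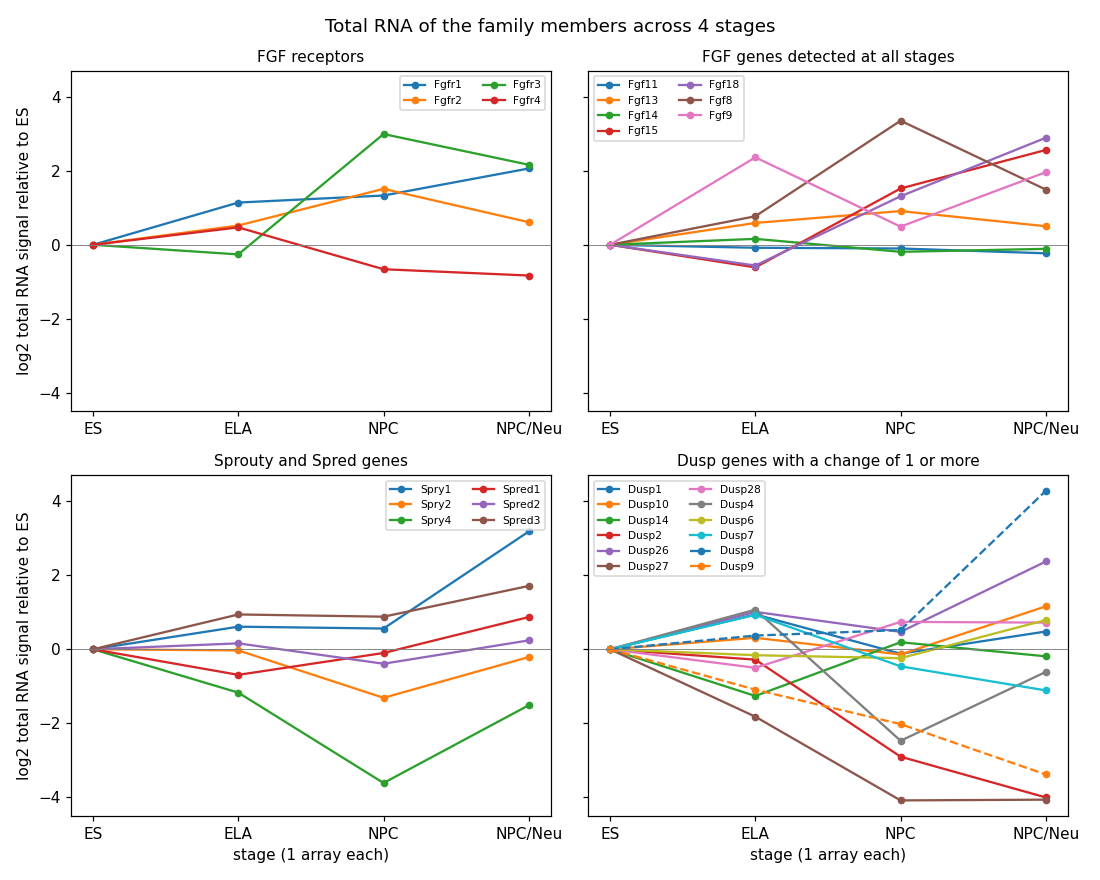
Log2 total RNA signal relative to ES cells at each stage (1 array each) for the receptors, the FGF genes detected in total RNA at every stage by a reliable probe, the Sprouty and Spred genes, and the Dusp genes detected at every stage with a change of at least 1 between neighboring stages. Fgfr3 and Fgf8 peak in NPC, Spry4 has its lowest point there, and Dusp8 and Spry1 stand highest in NPC/Neu.

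Among the feedback inhibitors, the 3 detected Sprouty genes were all at least 1 higher in NPC/Neu than in NPC. Spry1 measured 12.52, 13.13, 13.08 and 15.70 in total RNA, so that nearly the whole difference, 6.15-fold, lay in the last step. Spry2 measured 11.18, 11.15, 9.87 and 10.97, which was 2.44-fold lower in NPC and 2.15-fold higher afterwards. Spry4 measured 10.72, 9.55, 7.11 and 9.21. It was lower at each of the first steps, with log2 changes of -1.18 and -2.44, and 4.32-fold higher in NPC/Neu than in NPC. The Spry4 signal in NPC was near the detection limit, so the size of both differences from NPC is uncertain. All 3 were lower in NPC than in ELA, though the change of Spry1 (-0.05) was within the spot SD. These directions were the same under each scaling tried, with differences from NPC to NPC/Neu of 1.02 to 3.45.

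The Spred genes, relatives of Sprouty that hold back Raf activation by Ras, moved by less than 1 at every transition with this processing. Spred1 measured 11.80, 11.11, 11.70 and 12.67 in total RNA, Spred2 9.82, 9.98, 9.43 and 10.06, and Spred3 7.76, 8.70, 8.64 and 9.47. All 3 were highest in NPC/Neu, by 0.63 to 0.98 over NPC. The highest change of the 3 from ES to ELA, 0.93 for Spred3, ranged from 0.87 to 1.60 under the other scalings, and the highest from NPC to NPC/Neu reached 1.02.

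The ERK-directed phosphatases Dusp4, Dusp5, Dusp6, Dusp7 and Dusp9 did not move together. Dusp6, a cytoplasmic ERK phosphatase and a widely used readout of FGF signaling, was nearly level at 14.48, 14.32 and 14.24 in total RNA of ES cells, ELA and NPC, and reached 15.27 in NPC/Neu, 2.04-fold above NPC. Dusp4, a nuclear ERK phosphatase, measured 12.35, 13.42, 9.88 and 11.74. It was 2.11-fold higher in ELA than in ES cells, then 11.7-fold lower in NPC, and 3.64-fold higher in NPC/Neu. Dusp7, which acts in the cytoplasm, measured 10.19, 11.12, 9.73 and 9.08, and was 2.62-fold lower in NPC than in ELA. Dusp9 measured 12.79, 11.70, 10.77 and 9.41. It was lower at every step, with log2 changes of -1.10, -0.93 and -1.36. Dusp5 stayed between 7.34 and 7.78 and changed by at most 0.44. Dusp4 was thus high in ELA and low in NPC, as Fgf9 was, whereas Dusp9 went down throughout.

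Of the other phosphatases, Dusp2 and Dusp1, nuclear enzymes encoded by genes that are induced rapidly by growth factors and stress, were lower in NPC than in ELA. Dusp2 measured 11.19, 10.91, 8.29 and 7.19 in total RNA, a difference of 6.13-fold from ELA to NPC, and Dusp1 11.23, 12.17, 11.11 and 11.71. Dusp8, Dusp10 and Dusp16, which act mainly on the stress kinases JNK and p38, were higher at the last step, as was Dusp1 by 0.60. Dusp8 measured 8.49, 8.86, 9.01 and 12.77. Its total RNA was 13.6-fold higher in NPC/Neu than in NPC, and Dusp10 was 2.47-fold higher. Dusp16 was 0.80 higher.

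Among the smaller atypical phosphatases, Dusp26 measured 9.43, 10.44, 9.90 and 11.80, with a difference of 3.73-fold at the last step. Dusp14 measured 11.17, 9.91, 11.36 and 10.98, lowest in ELA. Dusp28 was 2.37-fold higher in NPC than in ELA. Dusp18 and Dusp23 were dark in total RNA of ELA and seen in NPC, at 9.03 and 8.68, which makes them at least 3.81-fold and at least 3.18-fold higher. In ES cells Dusp18 was seen, near the detection limit (7.01), and Dusp23 was dark (6.75). Dusp27, a muscle-associated member of the family thought to lack phosphatase activity, measured 11.26, 9.44, 7.18 and 7.20 and was 3.53-fold and then 4.79-fold lower. Its probe, shown because the gene was also enriched in Ago-RNA of ES cells, lies in the coding sequence.
Dusp27 coding probe, chr1:168028972-168029031, minus strand: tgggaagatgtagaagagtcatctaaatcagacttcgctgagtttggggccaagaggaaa
The remaining Dusp genes changed by less than 1 at each transition, of which Dusp12 was lower at each stage, from 15.06 in ES cells to 13.52 in NPC/Neu. A second Dusp12 probe, from 12.50 to 10.56, did the same.

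Other genes of the pathway, a list of 46 partners, transducers, brakes and ERK-induced genes, were all on the array. From ES to ELA, 3 of the 44 detected were at least 1 higher in total RNA and 3 were lower, where 4.87% and 4.57% of all genes were. From ELA to NPC 9 of 44 were higher and 5 lower (10.7% and 9.75% of all genes), and from NPC to NPC/Neu 5 of 43 were higher and 2 lower (6.09% and 4.36%). The ERK-induced transcription factor gene Etv5 changed by -2.99 from ELA to NPC and by 1.28 from NPC to NPC/Neu, and Etv4 was 2.45 higher and Etv1 1.30 higher at that last step. Other ERK-induced genes, Phlda1 and Ccnd1, were 1.68 and 1.06 higher in NPC than in ELA. Il17rd (Sef), a membrane-bound inhibitor of FGF signaling, was 1.89 higher in NPC/Neu than in NPC. The immediate early genes Ier3 and Ier2 were lower at the same step, with changes of -1.72 and -1.12. Of the FGF partners, the FGF-binding protein gene Fgfbp3 was 4.24 higher in NPC than in ELA and Flrt3 3.69 higher, whereas Fgfbp1 changed by -1.95. The median change of the list was 0.08, 0.02 and 0.18 at the 3 transitions, against 0.00, 0.00 and -0.03 for all genes.

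Ago enrichment (E) is the log2 signal in Ago-RNA minus that in total RNA of the same stage. In ES cells 3 of 48 members had E of at least 1 (6.25%, against 10.5% of all genes) and 0 had E of -1 or lower (against 11.7%). In ELA 4 of 46 were at least 1 (8.7%, against 4.08%) and 0 were -1 or lower (against 3.17%). In NPC 2 of 48 were at least 1 (4.17%, against 5.83%) and 1 was -1 or lower (2.08%, against 6.43%). In NPC/Neu 5 of 44 were at least 1 (11.4%, against 11.9%) and 1 was -1 or lower (2.27%, against 12.5%). The gene on the low side was Fgf23 both times, through the probe set aside above, so no other member had E of -1 or lower at its representing probe. The Fgf8 coding probe nearer the start of the gene, seen in ES total RNA only, gave -1.46 in ES cells. The median E of the members was 0.08, 0.10, 0.18 and 0.41 from ES to NPC/Neu, against 0.05, -0.04, 0.00 and 0.03 for all genes.

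**Figure D4:**
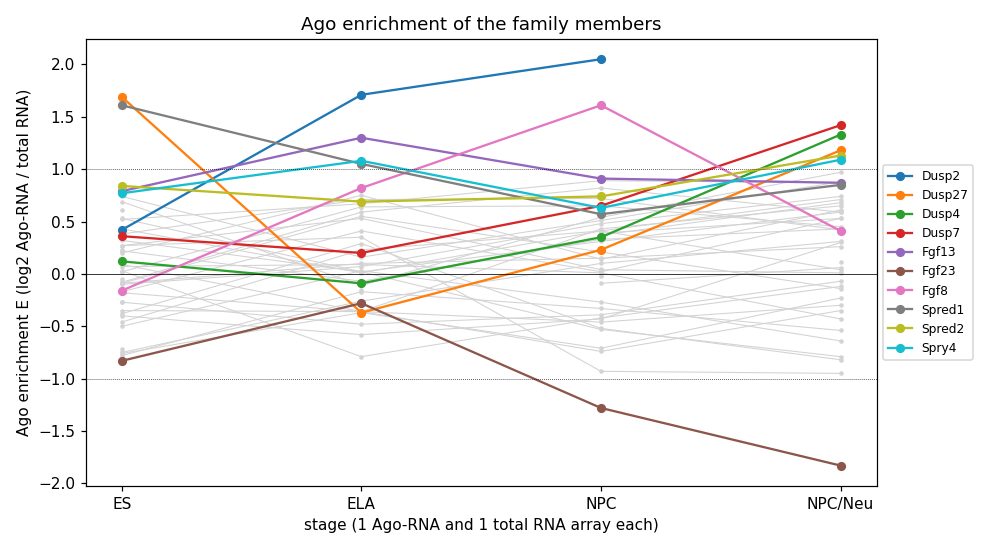
Ago enrichment E (Ago-RNA minus total RNA, log2 signal) at each stage, with 1 array of each RNA per stage, for members detected on both arrays. Colored lines are genes with E of at least 1 or at most -1 at one stage or more, grey lines are the others, and dotted lines mark 1 and -1. Dusp2 reaches 2.05 in NPC and has no value in NPC/Neu, Dusp27 and Spred1 start at 1.69 and 1.61 in ES cells, and only Fgf23 lies at or below -1.

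Dusp2 had E past 1 in ELA and NPC. Its Ago-RNA signals were 11.61 in ES cells, 12.61 in ELA and 10.34 in NPC beside total RNA of 11.19, 10.91 and 8.29, so that E was 0.42, 1.71 and 2.05. In NPC its Ago-RNA was thus 4.15-fold above its total RNA. The Ago-RNA spot of NPC/Neu was irregular and was left out. Dusp27 had Ago-RNA signals of 12.95, 9.07, 7.41 and 8.38 and E of 1.69, -0.37, 0.23 and 1.18. In NPC/Neu its total RNA was near the detection limit.

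Spred1 had Ago-RNA signals of 13.41, 12.16, 12.27 and 13.52 and E of 1.61, 1.05, 0.57 and 0.85 from ES to NPC/Neu. Its second probe gave 1.39, 0.79 and 0.89 in ES cells, NPC and NPC/Neu, its total RNA spot in ELA being irregular. Spred2 followed with 0.84, 0.69, 0.74 and 1.13, whereas E of Spred3 lay between -0.43 and 0.09. Spred1 and Spred2 thus had positive E at all 4 stages, beyond the spot SD, though most of these values were below 1. E of Spred3 did not stay above 0. The spot SD does not cover variation between immunoprecipitations.

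Spry4 had Ago-RNA signals of 11.49, 10.63, 7.74 and 10.31 and E of 0.77, 1.08, 0.63 and 1.09 from ES to NPC/Neu. Spry2 had 0.38, 0.71, 0.72 and 0.42, and Spry1 0.22, -0.07, 0.33 and 0.43. The highest E among the Sprouty genes in NPC, 0.72 here, was 1.59 with the processed signal quantile normalized and 1.05 with scaling to the 75th percentile. E of Spry1 in ELA was 0.41 when the arrays of each kind of RNA were normalized on their own, and the Sprouty genes otherwise kept the sign of E under each scaling.

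Among the ERK phosphatases, E of Dusp4 was 0.12, -0.09 and 0.35 in the first stages and 1.33 in NPC/Neu, and that of Dusp7 was 0.36, 0.20, 0.65 and 1.42. Both were highest in NPC/Neu. The second probe of Dusp7, which resembles 17 other places in the genome, gave 0.08 there, and the mean of both probes 0.75. E of Dusp6 lay between -0.17 and 0.53, of Dusp5 between 0.01 and 0.53 and of Dusp9 between -0.58 and 0.30. Dusp8, whose total RNA differed so widely, kept E between 0.52 and 0.89.

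Of the ligands, Fgf8 had Ago-RNA signals of 8.02, 9.78, 13.15 and 10.09 and E of -0.16, 0.82, 1.61 and 0.41, so that its Ago-RNA was highest relative to total RNA at the stage where its total RNA was also highest. The coding probe related to Fgf17 gave E of 1.28 in NPC and 0.21 in NPC/Neu. Fgf13 had E of 0.79, 1.30, 0.91 and 0.87. Fgf15 and Fgf18 had E of -0.52 and -0.53 in NPC and of -0.82 and -0.79 in NPC/Neu, as the only ones of the 4 strongly changing ligands with negative E at these stages. In ES cells Fgf10 was well above background in Ago-RNA (8.08) and dark in total RNA (6.87), which makes it at least 2.31-fold enriched.

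At their representing probes the 4 receptors had the same signs of change in E. From ES to ELA E of all 4 was lower, with changes of -0.45 for Fgfr3 to -0.82 for Fgfr4. E of Fgfr1 went from 0.69 to -0.11 and that of Fgfr2 from 0.74 to 0.16. From ELA to NPC E of all 4 was higher, by 0.35 to 0.79, and from NPC to NPC/Neu by 0.22 to 0.43, reaching 0.97 for Fgfr1, 0.88 for Fgfr2, 0.65 for Fgfr3 and -0.12 for Fgfr4. Other probes of the same genes differed there, with E in NPC/Neu of -0.21 at the Fgfr1 coding probe, -0.13 at the third Fgfr1 probe and -0.15 at the Fgfr3 coding probe, against 0.99 at the other Fgfr2 probe. None of these steps reached 1, and the spot SD of such a difference was 0.18 to 0.21. The lower E in ELA held for all 4 under each scaling and with the mean of all probes, which put the smallest difference at -0.09. Single probes differed. E went from -0.25 in ES cells to 0.83 in ELA at the third Fgfr1 probe, which resembles 283 other places. At the Fgfr4 coding probe, dark in ELA, it went from 0.04 to 0.12. E was lower in ELA at the Fgfr1 coding probe (0.42 to -0.15), the other Fgfr2 probe (0.92 to 0.19) and the Fgfr3 coding probe (0.19 to 0.07). The rise to NPC held for 3 of 4 after scaling of the processed signal to the 75th percentile (lowest -0.07), and the rise to NPC/Neu for 2 of 4 with the mean of all probes (-0.41 to 0.36). This course was not particular to receptors. Over all genes, E of at least 1 was seen in 10.5%, 4.08%, 5.83% and 11.9% from ES to NPC/Neu. E of -1 or lower was seen in 11.7%, 3.17%, 6.43% and 12.5%. Etv5 (1.48, 0.30, 0.82 and 1.26) and Il17rd (0.64, 0.29, 0.74 and 1.60) had the same signs of change, and Braf (1.69, 1.55, -0.17 and -0.39) did not. Whether the receptors differ from other genes in this was not tested.

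Between stages, E of 2 of 51 members changed by at least 1 from ES to ELA (3.92%, against 15.6% of all genes), of 2 of 50 from ELA to NPC (4.0%, against 7.48%) and of 1 of 47 from NPC to NPC/Neu (2.13%, against 8.05%). At the first transition these were Dusp27 (-2.06) and Dusp2 (1.29), at the second Fgfr1op2 (-1.28) and Fgf23 (-1.0), and at the third Fgf8 (-1.20). The study's methods set criteria for mRNAs released from or loaded onto Ago. They ask for E of at least 2 at one stage, at most 0.5 at the other and a variation of at least 1.5. An Ago-RNA signal above a background threshold, 7.80 here, is also required. By these criteria 0 members were released and 0 were loaded at any transition. Of all 36163 gene names, 100, 47 and 16 were released and 68, 16 and 20 loaded. With so few genes called, 0 of 57 members says little about them. With this processing Dusp2 in NPC was the only member with E of at least 2. Dusp2 had no Ago-RNA value in NPC/Neu and could not be scored at the last transition. In the pathway list, 10 of 45 genes had E of at least 1 in ES cells (10.5% of all genes had) and 0 had -1 or lower (11.7% of all genes had). The first included Sos1 (1.93), which activates Ras, and the kinase gene Braf (1.69). In ELA 3 of 44 were past 1 (4.08% of all genes were), and Sos1 (1.30) and Braf (1.55) were again among them. In NPC 2 of 43 were past 1 (5.83%) and 1 was -1 or lower (6.43%). In NPC/Neu 5 of 43 were past 1 (11.9%) and 2 were -1 or lower (12.5%), among them Fgfbp3 (-1.04). By then E was 0.71 and 0.84 for Sos1 in NPC and NPC/Neu, and -0.17 and -0.39 for Braf.

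Seed sites of miRNAs were located in the 3′ UTRs of the members, since Ago binds mRNAs through miRNAs. The miRNAs themselves were not measured on these arrays, and a match of 7 bases describes a sequence and shows no binding. The miR-290 and miR-302 families, which are characteristic of pluripotent cells, share a seed, and miR-21 is often studied for its targeting of Sprouty mRNAs. Their mature sequences from RefSeq, whose table is of build GRCm38.p6, are shown with the seed (bases 2 to 8) in capitals.
mmu-miR-294-3p: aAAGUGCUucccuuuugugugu
mmu-miR-302d-3p: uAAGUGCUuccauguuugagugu
mmu-miR-21a-5p: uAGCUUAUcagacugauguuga

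The match AGCACTT to the shared seed of miR-294-3p and miR-302d-3p was found on the transcript strand of 6 of 56 members with an annotated 3′ UTR (10.7%, against 13.4% of 19915 UTRs of all genes, whose median length was 893 bases against 1154 for the members). The genes were Dusp2, Dusp7, Spred1, Fgf9, Fgf10 and Dusp11, the last with 2 matches. The sites of Dusp2, Dusp7, Spred1 and Fgf10 are shown because these genes had E past 1 at one stage or more, with the match in capitals and mm9 positions.
Dusp2, chr2:127164030-127164059, plus strand: ggcgttggaaacAGCACTTtatatttatat
Dusp7, chr9:106276441-106276470, plus strand: gggtcctgtggcAGCACTTgccagatggcc
Spred1, chr2:117006605-117006634, plus strand: tggaagaattgaAGCACTTtttccttacac
Fgf10, chr13:119578592-119578621, plus strand: catttactggaaAGCACTTgggtcatatca

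The 6 genes did not share a course of E. In ES cells E was 1.61 for Spred1, at least 1.21 for Fgf10, 0.42 for Dusp2, 0.36 for Dusp7, 0.02 for Fgf9 and -0.35 for Dusp11. The highest values of Dusp2 and Dusp7 came later, in NPC and NPC/Neu. Dusp27, Spry4, Fgf8, Fgf13, Dusp4 and Spred2 also reached E of 1 and had no such match.

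The match ATAAGCT to the seed of miR-21a-5p was found in 6 of 56 members (10.7%, against 6.1% of all UTRs), namely Spry1, Spry2, Dusp8, Dusp16, Fgfr2 and Fgf12. From NPC to NPC/Neu the total RNA of Dusp16 changed by 0.80, of Fgf12 by 0.44 and of Fgfr2 by -0.90. The sites of Spry1, Spry2 and Dusp8 are shown because these genes were at least 1 higher in total RNA of NPC/Neu than of NPC.
Spry1, chr3:37542783-37542812, plus strand: gtaagtgcttaaATAAGCTatatattaatc
Spry2, chr14:106291705-106291734, minus strand: gacccacattgcATAAGCTaaagcagccaa
Dusp8, chr7:149266091-149266120, minus strand: atccctgagaaaATAAGCTattgttgtatt
In that stage E was 0.43 for Spry1, 0.42 for Spry2 and 0.87 for Dusp8, all below 1. Matches to let-7a-5p (CTACCTC) were found in 4 members (7.14%, against 8.81%), to miR-9-5p (ACCAAAG) in 8 (14.3%, against 11.4%) and to miR-126a-3p (CGGTACG) in 0 (against 0.211%). The shares rest on few genes, and the members' longer UTRs were not corrected for.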

How the data were processed

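The authors deposited spot intensity from 8 one-color Agilent SurePrint G3 mouse arrays (mm9), as the scanner software wrote it, without normalization between arrays. The labels' processing notes name Feature Extraction 9.1 and the file headers 10.7.3.1. According to the labels 50 ng of RNA was labeled per array. Each array had 62976 spots.

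From the mean and the local background intensity, a normexp correction with an offset of 50 was made in limma 3.58.1 (R 4.3.3). Between 125 and 523 irregular spots per array were left out, control spots were dropped, quantile normalization over all 8 arrays followed on the log2 scale, and spots of a probe were averaged. Genes well above background on at least one array compared were counted. Where one side was dark, its signal was raised to the lowest detected signal of that array, which gives a bound ("at least"). With 1 array per condition there was no test, and precision is limited by that number. In a simulated total RNA comparison, 194 of 200 spots given a log2 change of 2 were recovered, and 4 of 35567 others were called. The simulation used only detected spots of the ES total RNA array, with added noise. It does not measure variation between cultures or immunoprecipitations, nor recovery of changes near the limit of 1.

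Genes are named by a rule: all receptors, Sprouty, Spred and ERK phosphatase genes, all detected FGF genes, and other members past a log2 difference of 1. The members, the named genes and the lists were chosen with earlier results of these data known. Probes were placed on mm9 and GENCODE vM1 transcripts with blastn 2.17.0, which put 52 in a 3′ UTR, 24 in coding sequence and 8 in no coding transcript of that name. A probe was called unreliable if it matched no transcript of its gene or resembled 10 or more other places (at least 45 of 60 bases). This applied to the representing probes of 5 members (Fgf6, Fgf16, Fgf22, Fgf23 and Spry3). Further probes of Fgfr1, Dusp7 and Dusp22 also met it and entered the mean over probes. Python 3.11.15, numpy 2.4.6 and pandas 2.3.3 were used. Alternatives were an offset of 16, the processed intensity (quantile normalized or scaled to the 75th percentile), quantile normalization of each kind of RNA on its own, the mean over probes, detection on every array, and, chosen after seeing the data, leaving out members with unreliable probes. Control immunoprecipitations were not used here, and 1 gene of the pathway list and 1 probe sequence are not reported here.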

Additional observations from a re-analysis of the deposited data

How the results depend on the processing

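No paired analysis was possible because each condition has 1 array. No value past 1 of a member seen on all arrays compared changed sign under any scaling or with the mean over probes. Bounds and the genes of the pathway and marker lists were not checked in this way. The cause of the shifts below was not tested. Scaling to the 75th percentile moved the median E of all genes to -0.27, -0.17, -0.15 and -0.15 from ES to NPC/Neu, the median change in total RNA from ELA to NPC to -0.13 and that in E from ES to ELA to 0.13, and separate normalization of Ago-RNA and total RNA arrays moved the median E to 0.16, 0.17, 0.16 and 0.19, so counts of E are relative to these. Signals near background limit Fgf2, Fgf3, Fgf7, Fgf10, Fgf12 and Fgf21, and Spry4 in NPC.

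With the processed signal quantile normalized, members higher in total RNA from ES to ELA numbered 9 in place of 4, and members lower from NPC to NPC/Neu 7 in place of 3. Members with E of at least 1 numbered 5 in ES cells and 5 in NPC, those with E of -1 or lower 1, 1 and 2 in ES cells, ELA and NPC/Neu, and those whose E changed by 1 numbered 7, 7 and 3 at the 3 transitions. With scaling to the 75th percentile the total RNA counts were 8 and 5, those with E of -1 or lower 4, 2, 2 and 2 from ES to NPC/Neu, and E changed by 1 for 7 at the first and 4 at the last transition. With separate normalization, members with E of at least 1 numbered 6, 8, 7 and 14 from ES to NPC/Neu, 0 had -1 or lower in NPC, and 2 changed at the last transition, as with an offset of 16 (2). With the mean over probes, 0 members had E of -1 or lower in NPC and in NPC/Neu, and E changed by 1 for 1 from ELA to NPC and for 0 from NPC to NPC/Neu. Without unreliable probes these were 0, 0 and, from ELA to NPC, 1. Other counts stayed within 1.5 times.

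For single genes, the mean over probes took Dusp7 E in NPC/Neu to 0.75, Spred1 E in ELA to 0.55 (where a total RNA spot of one probe was left out and its Ago-RNA spot was not), Fgfr1 from ES to ELA to 0.79, E of Fgf8 in NPC to 1.07 and Fgfr4 from ELA to NPC to -0.50. The processed signal, quantile normalized, took Spry4 to -3.84 from ELA to NPC and to 3.45 afterwards, Dusp27 to -3.63 from ELA to NPC, Dusp2 to -1.93 from NPC to NPC/Neu, and E of Dusp27 in NPC/Neu to 2.27. Scaling to the 75th percentile took Dusp6 and Fgf15 from NPC to NPC/Neu to 0.84 and 0.89. Separate normalization took Dusp26 from ES to ELA to 0.92.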
